A study of Mus musculus with 8 samples.

Results

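The mitochondrial respiratory chain and ATP synthase were followed through the transcripts of their nuclear-encoded subunits in upper small intestine from mice with an epithelial deletion of Pdx1 and from their control brothers. The members were all probe sets of an Affymetrix array whose single gene symbol began with Nduf followed by a, b, c, s or v, with Uqcr, with Cox followed by 4 to 8 and a letter from a to c, or with Atp5, or was Sdha, Sdhb, Sdhc or Sdhd. This gave 177 of 45037 probe sets, which stood for 88 of 18193 named genes. The rule reads symbols alone, and no filter on low values was set, so all 177 were tested. The Nduf pattern also took in 8 complex I assembly factors, which are not subunits, while Cox4i1 fell outside the rule and is described among the other genes of the pathway.

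Both groups were male mice aged 6 months, homozygous for a Pdx1 allele with loxP sites around exon 2 (Pdx1flox/flox) and, per the labels, brothers from a litter, fed a standard diet with 4.5% fat. The 4 knockout mice also carried Cre recombinase under a 12.4 kb fragment of the mouse villin 1 promoter (Pdx1flox/flox;VilCre), and the 4 control mice carried no Cre. No group had Cre with intact Pdx1, so loss of Pdx1 and presence of Cre cannot be told apart. RNA came from the whole wall of the 5 cm next to the pylorus, with a single array per mouse, so epithelium, muscle and other cells were measured together, and fewer cells of a type cannot be told apart from less RNA per cell. The number of arrays limits the precision.

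The labels were first checked on Pdx1 and on tissue markers. On the log2 scale, the brighter Pdx1 probe set had 8.52 ± 0.36 in control mice and 5.93 ± 0.25 in knockout mice (SD, n = 4 each), with adjusted p = 4.16e-04 in limma. Vil1, whose promoter drove Cre, had 12.60 ± 0.092 in the control and 12.79 ± 0.059 in the knockout (SD, n = 4 each). Its groups did not overlap, and the difference of 0.19 did not pass (adjusted p = 0.660 in limma). Enterocyte markers were bright on all arrays, with 9 measured markers at mean levels from 12.70 to 14.59. Exocrine pancreas markers were bright too and uneven, with sample scores from -1.35 to 1.04 in the control and from -0.34 to 0.63 in the knockout. To obtain a sample score, each gene of a list was centred on its average over the 8 arrays, and the centred values were averaged within the sample. Control 2 and knockout 3 had the lowest enterocyte score of their groups (-0.20 and -0.038) and the highest crypt and proliferation score (0.12 and 0.072). Their deviations from the group means were the most alike of any knockout and control pair (Pearson's r = 0.597 across probe sets).

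Oxidative phosphorylation is the route by which mitochondria turn the energy of nutrients into ATP. Complex I takes electrons from NADH and complex II takes them from succinate; both hand them to ubiquinone, complex III passes them to cytochrome c, and complex IV gives them to oxygen. Complexes I, III and IV pump protons across the inner membrane, and ATP synthase lets the protons flow back through its c ring and makes ATP in its F1 head. Enterocytes hold many mitochondria, which serve active nutrient transport and the handling of absorbed fat.

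None of the 177 probe sets passed the test between knockout and control, and the differences between the group means were small. In limma, with adjustment over all 45037 probe sets, the count of called members was 0, against 0.0422% of all probe sets called, and the lowest adjusted p among members was 0.594. At an unadjusted p under 0.05 there were 7 members (3.95%), against 7.13% of all probe sets. Of these, 4 were higher in the knockout, against 3.5% of all probe sets, and 3 lower, against 3.62%. Among bright members, with a mean of 8 or more, there were 3 of 133 (2.26%), all higher, against 6.87% of bright probe sets at large (5.46% higher and 1.41% lower). When each probe set kept its own variance, in an ordinary linear model with no pooling, 24 members (13.6%) had an unadjusted p under 0.05, against 7.29% of all probe sets, and again 0 passed after adjustment. With each gene represented by its brightest probe set, 86 of the 88 differences between group means lay within 0.2 of 0 on the log2 scale.

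The members were bright and steady probe sets. Their median level was 11.54, against 5.25 over all probe sets, and 133 of 177 had a mean of 8 or more. The median SD within groups was 0.078 for members and 0.127 for all probe sets, and 0.068 against 0.119 among those with a mean of 8 or more. Of the 76 member genes at that level, 75 had a 95% interval of the difference that stayed within 0.4 of 0. The exception was Cox7a1, with an interval from -0.059 to 0.55, a fold of up to 1.47. These intervals bound the size of a difference in transcript level per gene in whole tissue, and they do not show that the groups were equal.

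**Figure D1:**
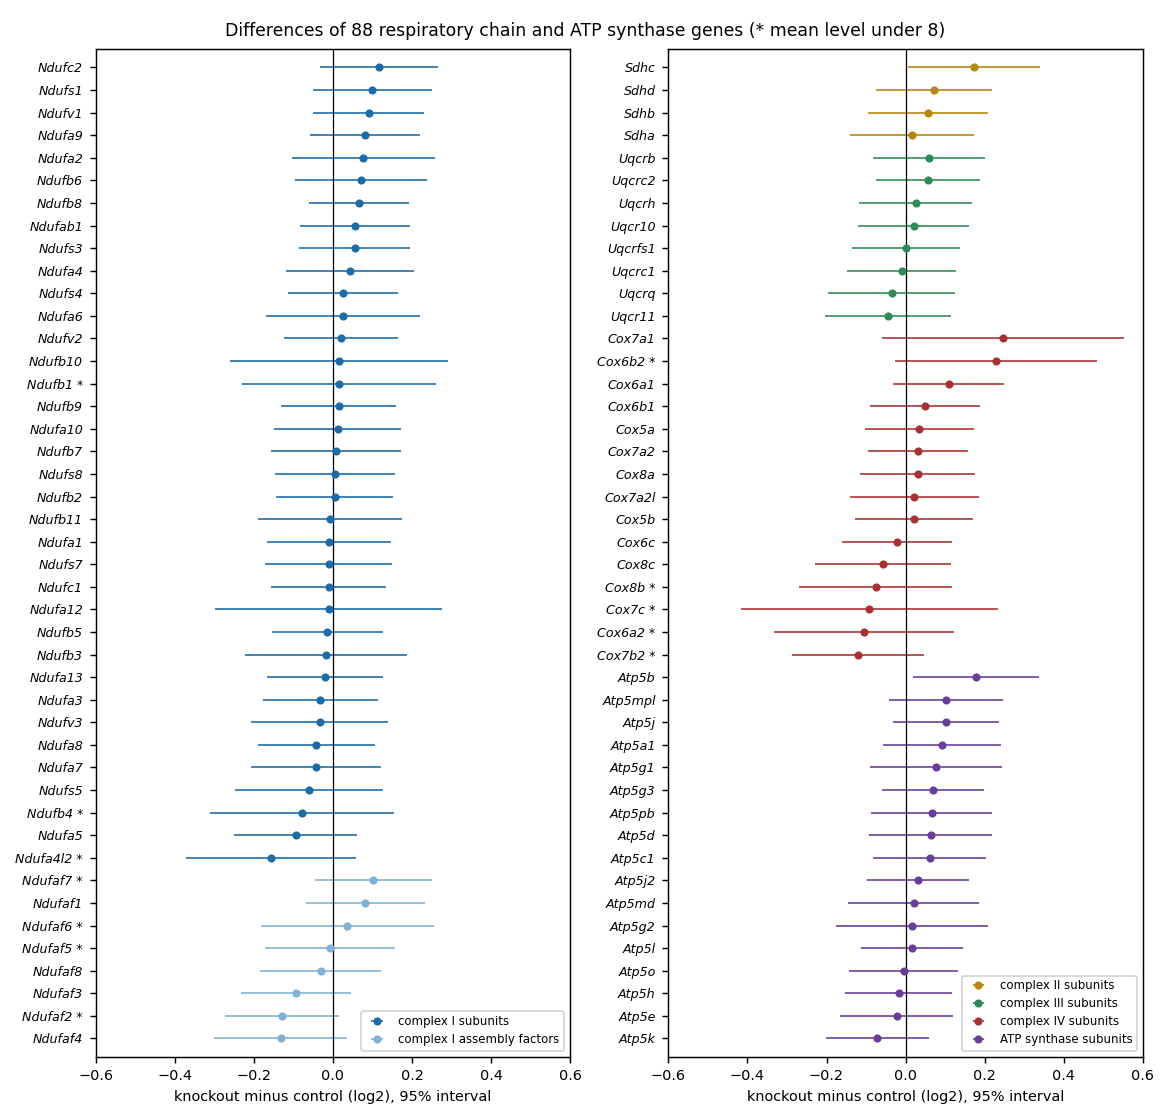
Knockout minus control for each of the 88 genes on its brightest probe set (log2, x axis), with 95% intervals from limma; colours mark the complex, and an asterisk marks a mean level under 8. Nearly all points lie within 0.2 of 0, and the intervals of Sdhc and Atp5b alone lie wholly on one side.

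The direction of the small differences depended on the scaling. As deposited, 116 of 177 members (65.5%) were above 0, with a median difference of 0.025, against 50% of all probe sets and a median of 4.75e-05. Among all probe sets with a mean of 8 or more, however, 66.1% were above 0 too, with a median of 0.036. The members' share was near that of bright probe sets at large. The deposited values were also quantile normalized, which gives all arrays the same distribution. This step is called repeated here, although the sources do not say whether the authors had used it. After repeated quantile normalization, 82 members (46.3%) were above 0, with a median of -0.0089, and so were 49.7% of all bright probe sets. After median centring of the arrays it was 124 (70.1%). The sign was the same under all 3 scalings in 64 of the 88 genes.

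Groups whose samples did not overlap were more common among the members than among all probe sets, and this too depended on the scaling. As deposited, 17 of 177 members had knockout values wholly apart from the control values (9.6%), against 4.43% of all probe sets. The knockout was higher in 15, against 2.1% of all probe sets, and lower in 2, against 2.33%. Among members with a mean of 8 or more there were 14 (10.5%), against 4.73% of all such probe sets; 13 were higher, against 3.67%, and 1 lower, against 1.06%. After repeated quantile normalization 6 members (3.39%) had groups that did not overlap, against 4.27% of all probe sets, and 5 of the original 17 were among them. After median centring the excess remained, with 19 members (10.7%), 15 higher and 4 lower, against 4.56% of all probe sets, and 14 of the 17 were among them. On the brightest probe set of each gene, 9 genes had separate groups as deposited, which are all named here. After repeated quantile normalization only Atp5b of these 9 stayed separate, while Sdhc, Cox6a1, Cox7a2, Ndufb8, Ndufaf7, Atp5g3, Atp5j and Atp5k overlapped. After median centring 6 of the 9 stayed separate, and Atp5b, Atp5g3 and Ndufaf7 overlapped. Other probe sets, named after their values were seen, kept separate groups under all 3 scalings. Bright ones were in Atp5a1 (0.11, and 0.076 after repeated quantile normalization) and Cox5a (0.13 and 0.087), and dim ones in Cox8a and Sdha. The brightest probe sets of these genes overlapped under each scaling. None of the 17 passed the test after adjustment.

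**Figure D2:**
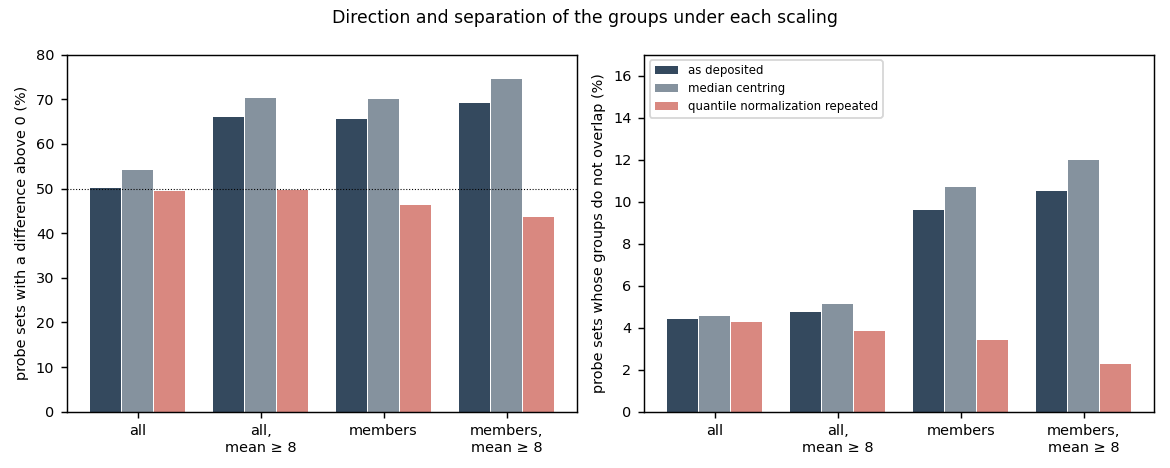
Share of probe sets with a difference above 0 (left, %, the dotted line marks 50) and with groups that do not overlap (right, %), for all probe sets and for members, with bars for the 3 scalings. The excess above 0 appears in bright probe sets of any kind as deposited and is absent after repeated quantile normalization, where 46.3% of members are above 0.

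A feature more common among the members than among genes at large, which the rule did not use, lies in their promoters. NRF1 and the ETS factor GABP are known activators of nuclear genes for mitochondrial proteins. RefSeq promoter windows (GRCm38.p6), from 250 bases before to 50 after a start, were matched by Entrez identifier for 74 of the 88 genes and gave 79 windows. A palindromic NRF1 core with a free base at its centre (searched on both strands, as all motifs were) was in 18 windows (22.8%), against 4.6% of all 32851 windows, and its strict form, a subset of the former, in 6 (7.59%), against 0.971%. The ETS core CCGGAAG was in 19 (24.1%), against 8.86%. The NF-Y core CCAAT was in 33 (41.8%), against 37.4%. The homeodomain core TAATTA, which Pdx1 can bind, was in 0 of the 79 windows, against 5.29% of all, and so was CTAATTA, a longer form that holds it, against 2.0%. Member windows had a median GC content of 59.0% and all windows of 52.7%, which bears on how often such letters occur. These matches are descriptions of letters in a window, not of binding.

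The 250 bases before the start are shown for a subunit of complex IV, of complex I and of the c ring, as examples of windows with a match. They lie at chr5:115348959-115349208 (Cox6a1), chr6:24527691-24527940 (Ndufa5) and chr15:102671048-102671297 (Atp5g2) of GRCm38.p6, all on the minus strand and written 5′ to 3′. Capitals mark matches to the NRF1 core with a free base or to CCGGAAG on either strand.
Cox6a1: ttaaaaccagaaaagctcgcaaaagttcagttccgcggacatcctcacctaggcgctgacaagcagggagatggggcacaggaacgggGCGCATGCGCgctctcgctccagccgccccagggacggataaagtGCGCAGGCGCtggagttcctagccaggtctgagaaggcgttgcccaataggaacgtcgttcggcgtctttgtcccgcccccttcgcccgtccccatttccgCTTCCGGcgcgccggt
Ndufa5: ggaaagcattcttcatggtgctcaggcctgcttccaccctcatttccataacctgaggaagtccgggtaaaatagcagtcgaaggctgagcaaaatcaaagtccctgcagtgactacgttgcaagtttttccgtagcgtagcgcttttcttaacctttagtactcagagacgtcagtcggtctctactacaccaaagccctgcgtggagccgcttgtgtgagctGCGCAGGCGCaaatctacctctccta
Atp5g2: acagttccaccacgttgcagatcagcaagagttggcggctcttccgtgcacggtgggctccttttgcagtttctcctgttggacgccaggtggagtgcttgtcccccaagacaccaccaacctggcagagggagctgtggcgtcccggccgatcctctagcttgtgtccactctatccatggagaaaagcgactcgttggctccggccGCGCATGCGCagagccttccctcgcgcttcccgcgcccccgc
Cox6a1 held 2 NRF1 matches and 1 ETS match, and the others held 1 NRF1 match each. The transcripts differed little between the groups, with knockout minus control at 0.11 for Cox6a1, -0.094 for Ndufa5 and 0.017 for Atp5g2, which turned to -0.029 after repeated quantile normalization. None passed the test.

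**Figure D3:**
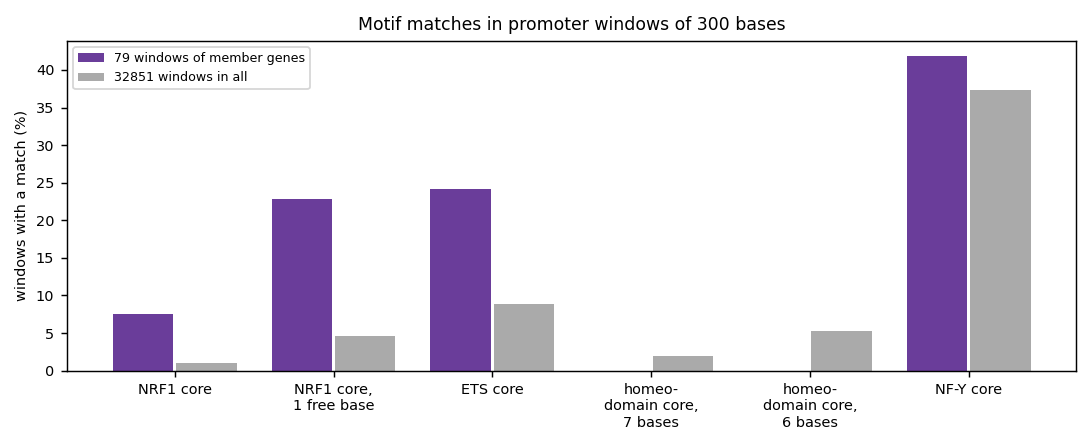
Share of promoter windows of 300 bases with a match (%, y axis) for the 6 motifs searched, in purple for the 79 member windows and in grey for all 32851 windows. NRF1 and ETS cores were more frequent in member windows, and the homeodomain cores were in none of them.

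Complex I, the largest complex of the chain, was represented by 36 Nduf genes other than the assembly factors. They were classed as 6 core and 30 accessory subunits. The class follows symbols, which do not settle whether each protein, such as that of Ndufa4 or Ndufa4l2, belongs to the complex. Of the 36, 20 were above 0, 0 passed, and the median difference was 0.0068, turning to -0.038 after repeated quantile normalization. The median was also below 0 without control 1, knockout 1 or knockout 2 (-0.0069, -0.010 and -0.0075). In the core group 5 of 6 were above 0 (median 0.038), and in the accessory group 15 of 30 (median -0.0013). Ndufs1, the largest core subunit, read 10.65, 10.73, 10.68 and 10.72 in controls 1 to 4 and 10.80, 10.80, 10.90 and 10.68 in knockouts 1 to 4. Knockout 4 lay among the controls, so the groups overlapped, and the difference was 0.099 (SE 0.068, adjusted p = 0.793 in limma).

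On the brightest probe set of each gene, Ndufc2 had the largest value above 0 among the accessory subunits of complex I. It read 11.95, 11.85, 11.79 and 11.81 in the controls and 11.94, 11.89, 12.01 and 12.03 in the knockouts. Control 1 lay above knockouts 1 and 2, so the groups overlapped (difference 0.12, adjusted p = 0.760 in limma). Ndufb8 was the only complex I gene whose groups did not overlap on its brightest probe set, with 11.80 to 11.86 in the control and 11.88 to 11.91 in the knockout, a difference of 0.066. Its difference was 0.016 after repeated quantile normalization, and its groups then overlapped; it was chosen after its values were seen. Ndufa5 had -0.094, with 11.22 to 11.37 in the control and 11.10 to 11.31 in the knockout, which overlapped. Ndufa3, the brightest complex I gene, had -0.032, from 12.74 to 12.86 in the control and from 12.68 to 12.83 in the knockout. Ndufa4l2, a relative of Ndufa4 known to be induced by low oxygen, was dim at 6.85 ± 0.086 in the control and 6.69 ± 0.19 in the knockout (SD, n = 4 each). Its low mean in the knockout rested largely on knockout 3, at 6.43, and without that sample its difference was -0.069.

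The 8 assembly factors of complex I, which help to build the complex but do not stay in it, had mean levels from 7.23 to 10.04. Of these, 3 were above 0 and 0 passed, with a median of -0.019. Ndufaf4 had -0.13 (9.29 ± 0.12 in the control and 9.16 ± 0.062 in the knockout; SD, n = 4 each), and Ndufaf2 had -0.13 as well. Ndufaf7 had 0.10 with groups that did not overlap, from 7.57 to 7.64 in the control and from 7.65 to 7.83 in the knockout. These 3 were named after their values were seen, and none passed.

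Complex II, which is also succinate dehydrogenase of the citrate cycle, had all 4 genes above 0 with a median of 0.064. After repeated quantile normalization 3 of 4 were above 0, with a median of 0.023. Sdhc, a membrane anchor, read 11.82, 11.84, 11.84 and 11.73 in controls 1 to 4 and 12.01, 11.91, 12.14 and 11.87 in knockouts 1 to 4. Every knockout lay above every control. The groups overlapped after repeated quantile normalization, with a difference of 0.12. As deposited, the difference was 0.17 with SE 0.075, a fold of 1.13, and it did not pass over all probe sets (unadjusted p = 0.0441, adjusted p = 0.694 in limma). The other anchor, Sdhd, had 0.072, the iron-sulfur subunit Sdhb had 0.057 and the flavin subunit Sdha had 0.016, all with groups that overlapped.

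On the brightest probe set of each gene, complex III spanned the narrowest range among the complexes, with differences from -0.045 to 0.060 among its 8 genes. Of these, 5 were above 0, 0 passed, and the median was 0.011 as deposited, -0.024 after repeated quantile normalization and -0.011 without control 1. Uqcrb, which sits near the quinone site and was the brightest, read 13.73, 13.78, 13.79 and 13.82 in the controls and 13.89, 13.84, 13.75 and 13.89 in the knockouts. Knockout 3 lay among the controls on this probe set. On the dimmer Uqcrb probe set, knockout 3 was instead the highest sample, at 11.69, and the groups did not overlap (11.30 to 11.39 against 11.42 to 11.69; difference 0.17, adjusted p = 0.691 in limma), although they did after repeated quantile normalization, with 0.12. The probe sets of Uqcrb thus ordered the knockout samples differently. The core subunit Uqcrc2 had 0.057, and the small subunits Uqcrq and Uqcr11 had -0.035 and -0.045, with groups that overlapped in all 3. The other Uqcrc2 probe set, also bright with a mean of 12.32, had 0.18, and 0.14 after repeated quantile normalization. Its groups overlapped under both scalings.

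Complex IV, cytochrome c oxidase, had 15 genes by symbol, 9 of them classed as widely expressed and 6 as isoforms of restricted expression. Symbols do not settle whether each protein, such as that of Cox7a2l, is a subunit. Among the widely expressed genes, Cox7c was read on a dim probe set with a mean of 5.62. Of the 15, 9 were above 0, 0 passed, and the median was 0.022 as deposited, -0.0076 after repeated quantile normalization and 0.0018 without control 1. Cox6a1, the common form of its subunit and the brightest member gene of all, read 13.82, 13.94, 13.94 and 13.92 in controls 1 to 4 and 14.01, 14.07, 13.95 and 14.03 in knockouts 1 to 4. The knockouts lay above the controls, although knockout 3 was only just above controls 2 and 3. The difference was 0.11 (SE 0.063, adjusted p = 0.761 in limma). Cox7a2, another widely expressed subunit named after its values were seen, varied least, with 13.32 ± 0.017 in the control and 13.35 ± 0.010 in the knockout (SD, n = 4 each). Its groups did not overlap although the difference was 0.031, or 0.016 after repeated quantile normalization, where they did.

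The isoforms of restricted expression gave the widest spread among the members. Cox7a1, a form of heart and skeletal muscle, read 10.71, 10.10, 10.72 and 10.43 in controls 1 to 4. In knockouts 1 to 4 it read 10.82, 10.83, 10.51 and 10.79. Control 2 and knockout 3 were the lowest of their groups, and the groups overlapped (difference 0.25, SE 0.14, adjusted p = 0.753 in limma). Without control 2 its difference was 0.12. The smooth muscle score was 0.31, -0.0010, 0.30 and -0.10 in knockouts 1 to 4 and from -0.22 to -0.052 in the controls, with 9 of 9 markers above 0; knockout 3 thus had a high smooth muscle score and the lowest Cox7a1 value of its group. The part of muscle in the Cox7a1 value was not tested.

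Cox6b2, known from testis, was dim and showed the same pair of low samples. It read 6.33, 5.96, 6.29 and 6.34 in controls 1 to 4 and 6.52, 6.57, 6.18 and 6.57 in knockouts 1 to 4. The difference was 0.23 (adjusted p = 0.733 in limma), and the groups overlapped through knockout 3. Control 2 and knockout 3 were also the samples with the lowest enterocyte scores of their groups; the part of cell makeup was not tested. The striated muscle forms Cox6a2 and Cox8b had -0.10 and -0.076 at levels near 7 and 5, and the testis forms Cox7b2 and Cox8c had -0.12 and -0.057. Markers of striated muscle read between 3.14 and 7.28 on average, with 2 of 8 above 0.

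ATP synthase had 17 genes, of which 13 were above 0 and 0 passed, with a median of 0.061. After repeated quantile normalization 10 were above 0 and the median was 0.030. By part of the enzyme, 4 of 5 genes of the F1 head were above 0 (median 0.064), 3 of 3 of the c ring (median 0.069), 2 of 4 of the peripheral stalk (median 0.031) and 4 of 5 of the membrane part (median 0.020). Atp5b, the catalytic beta subunit, had the largest value above 0 in the enzyme. It read 13.60, 13.71, 13.66 and 13.59 in controls 1 to 4 and 13.82, 13.79, 13.96 and 13.71 in knockouts 1 to 4. The groups did not overlap, but knockout 4 and control 2 were equal at 2 decimals. The difference was 0.18 with SE 0.072, a fold of 1.13 (unadjusted p = 0.0319, adjusted p = 0.678 in limma).

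Other subunits of ATP synthase stayed closer to 0. Atp5g3, which encodes a copy of the c ring subunit and was the brightest gene of the enzyme, read 13.76 to 13.81 in the control and 13.82 to 13.89 in the knockout, without overlap, a difference of 0.069, or 0.041 with overlap after repeated quantile normalization. Atp5j of the peripheral stalk had 0.10, with 12.46 to 12.55 in the control and 12.55 to 12.66 in the knockout, again without overlap, and 0.071 with overlap after repeated quantile normalization. On its brightest probe set, Atp5k of the membrane part was lower in the knockout. It read 12.76, 12.78, 12.75 and 12.74 in the controls and 12.71, 12.65, 12.67 and 12.73 in the knockouts, so all knockouts lay below all controls, by 0.071 on average (adjusted p = 0.833 in limma). The groups overlapped after repeated quantile normalization, with a difference of -0.097. Its other probe sets, also bright, had -0.075 and 0.045, the latter with the opposite sign. Atp5e, the epsilon subunit of the F1 head, had -0.022 with groups that overlapped. Among genes on their brightest probe set, Atp5k was the only one whose groups were separate as deposited with the knockout lower.

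**Figure D4:**
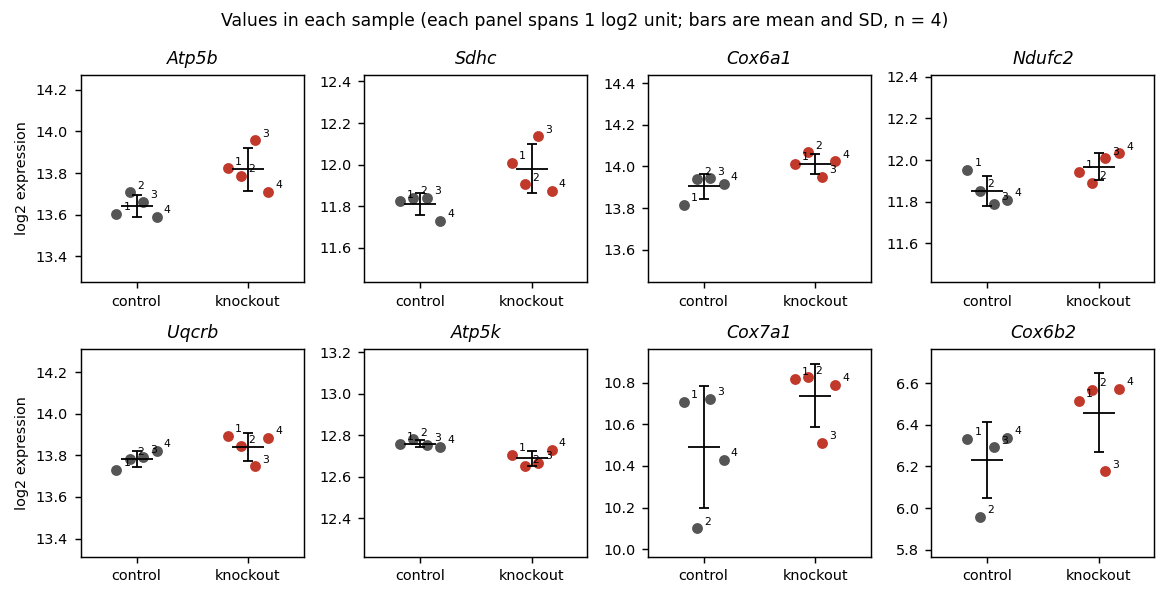
Log2 expression of 8 member genes in each sample (y axis, each panel spans 1 log2 unit), with replicate numbers beside the points and the mean and SD of 4 samples as bars. As deposited, Atp5b, Sdhc, Cox6a1 and Atp5k show separate groups with small gaps, while Cox7a1 and Cox6b2 vary more and are lowest in control 2 and knockout 3.

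In knockout 3 the scores of complexes I, III and IV were the lowest of the knockouts, at -0.048, -0.025 and -0.041. Its complex II score was the highest, at 0.097, and its ATP synthase score, at 0.018, lay between those of the other knockouts. The citrate cycle score was 0.054, 0.021, 0.092 and 0.0013 in knockouts 1 to 4, also highest in knockout 3.

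In every complex the sample scores of the groups overlapped. Complex I scores ran from -0.050 to 0.041 in the control and from -0.048 to 0.031 in the knockout. Complex II scores ran from -0.090 to 0.011 and from -0.012 to 0.097. For ATP synthase they ran from -0.067 to 0.023 in the control and from 0.0084 to 0.036 in the knockout. Enterocyte scores ran from -0.20 to 0.032 and from -0.038 to 0.13, with 8 of 9 markers above 0, a range wider than that of any complex. Their part in the members' values was not tested. The enterocyte markers with the smallest p, Anpep and Alpi, had 0.43 and -0.22, both with groups that did not overlap (adjusted p = 0.476 and 0.599 in limma). Among smooth muscle markers, 9 of 9 above 0, Synm had 0.40 and Actg2 0.52, both with groups that overlapped. Crypt and proliferation markers had 4 of 7 above 0 (median 0.013), immune cell markers 4 of 5 (median 0.11), adipocyte markers 4 of 5 (median 0.032) and exocrine pancreas markers 0 of 7 (median -0.20). None of the markers in these lists passed the test. The 3 prime minus 5 prime difference of the b-actin array control, a sign of RNA integrity, was 0.50 ± 0.076 in the control and 0.39 ± 0.061 in the knockout, and that of Gapdh was -0.041 ± 0.040 and -0.080 ± 0.016 (SD, n = 4 each). The knockout mean was lower in the other array controls too, with samples that overlapped. In the same order, 18S had 0.21 ± 0.27 and -0.0097 ± 0.33, and pyruvate carboxylase 2.25 ± 0.18 and 2.19 ± 0.16. Transferrin receptor had 1.82 ± 0.12 and 1.70 ± 0.21. The part of RNA integrity in the members' values was not tested.

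**Figure D5:**
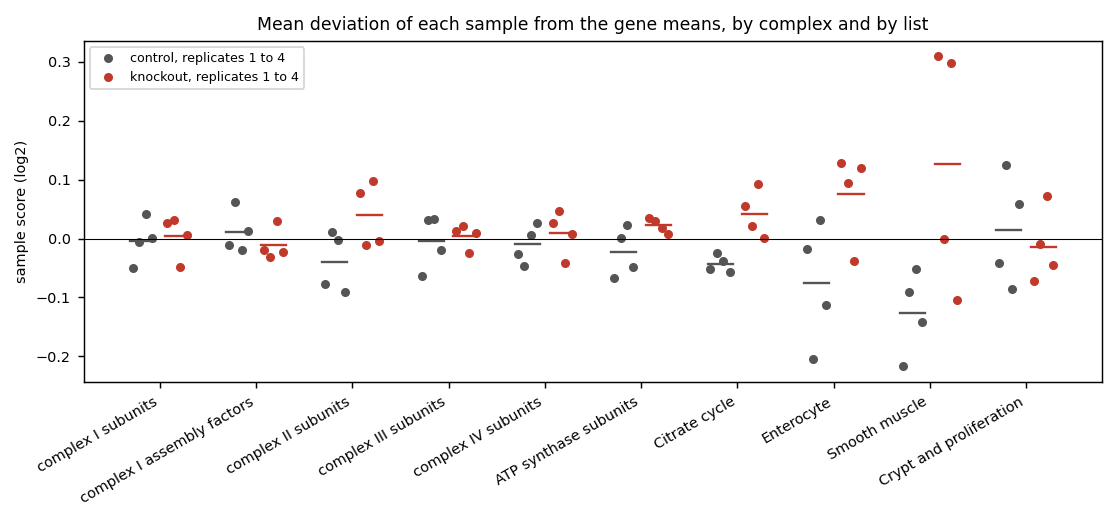
Sample scores (log2, y axis) for the subunits of each complex, the complex I assembly factors and 4 other gene lists, with points for replicates 1 to 4 from left to right in each group and lines for the group means. The groups overlap in every complex, and the spread is smaller there than for enterocyte and smooth muscle markers.

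Several genes had extra probe sets that disagreed with the bright one. Of the 88 genes, 51 had several probe sets, and in 24 of these the differences had both signs. The widest spreads were in Cox5b (-0.24 to 0.11 over 6 probe sets), Cox8a (0.030 to 0.34 over 3), Ndufab1 (-0.068 to 0.23 over 5) and Sdha (-0.24 to 0.039 over 4). In each of these the outlying probe set was dim. Bright probe sets also had opposite signs in other genes, among them Atp5k, Ndufa5, Ndufa7, Ndufb5, Ndufb7, Ndufb11, Ndufs7, Atp5h, Atp5o and Uqcr10. In Atp5h the probe sets lay at 12.81 and 12.82 on average, and their differences ran from -0.017 to 0.0595. The Cox8a one read 4.28 ± 0.17 in the control and 4.62 ± 0.17 in the knockout, while the bright one read 12.30 ± 0.081 and 12.33 ± 0.030 (SD, n = 4 each). The Sdha one read from 3.92 to 4.13 in the control and from 3.64 to 3.83 in the knockout, while the bright one read 12.27 ± 0.049 and 12.29 ± 0.10. Of the 7 members with an unadjusted p under 0.05, 4 were such dim probe sets with means under 8 (in Cox8a, Sdha, Cox5b and Cox8c). The remaining 3, in Atp5b, Sdhc and Uqcrb, were bright and above 0.

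Other genes of the pathway gave 0 calls in each of 5 lists. Among carriers and subunits outside the rule, 6 of 7 were above 0 (median 0.058); Etfdh and Etfb, which carry electrons from fat oxidation to ubiquinone, had 0.11 and -0.080, and the complex IV subunit Cox4i1 had 0.058. Of 22 assembly genes 11 were above 0, with the copper chaperone Cox17 at 0.16 and Cox16 at -0.25. In the citrate cycle 10 of 12 were above 0 (median 0.079, and 0.036 after repeated quantile normalization), with Sucla2 at 0.19 and Dld at 0.18. As deposited, its scores did not overlap, from -0.056 to -0.025 in the control and from 0.0013 to 0.092 in the knockout. It was the only list or complex so separated, picked out after the scores were seen. Its genes had means of 9.90 or more, and 66.1% of all bright probe sets were above 0 as deposited. Scores were not computed under the other scalings. Under all 3 scalings 10 of 12 of its genes were above 0. Bright probe sets at large had 49.7% above 0 after repeated quantile normalization and 70.3% after median centring. Genes of this list without overlap numbered 1 as deposited, 0 after repeated quantile normalization and 2 after median centring. Of 14 regulators of mitochondrial genes 6 were above 0 (median -0.017), with the mitochondrial helicase Twnk at -0.14 and the coactivator Pprc1 at -0.22. Among 9 carriers and pores of the membranes 7 were above 0 (median 0.080), or 5 after repeated quantile normalization, with the ADP/ATP carriers Slc25a4 at 0.19 and Slc25a5 at 0.11.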

How the data were processed

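Transcripts were measured on 8 arrays, 4 per group, with groups taken from the sample titles. The authors deposited log2 expression values per probe set; the log2 scale was read from the values, from 2.55 to 14.83, with array medians from 5.23 to 5.27. Per the submitters' processing notes Partek 6.4 was used, with no role given; the sources used here do not give background correction, summarisation or normalization. The table has no detection calls, so a dim probe set can understate a change. Of 45101 probe sets, 64 array controls were left out. Symbols were those of the platform annotation held by GEO, which gave 1 symbol to 34945 probe sets, several to 932 and none to 9160, and 10 probe sets that name a member together with another gene were not members. All 177 members were matched to RefSeq by Entrez identifier.

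Knockout minus control was fitted with lmFit and eBayes of limma 3.58.1 (R 4.3.3), two-sided, with no filter, covariate or block, and with Benjamini-Hochberg adjustment over all probe sets; an adjusted p under 0.05 was called. The fit was tested on simulated data, where it called 28 of 50 changes of 0.5 on the log2 scale and 50 of 50 changes of 1.0. Changes as small as the members' differences were not simulated. For a gene with several probe sets, the brightest on average stood for it. Genes were named by rule: called members, per complex the 2 with the smallest p in each direction and the brightest, 7 isoforms of restricted expression, the 4 genes with the most discordant probe sets, and Pdx1 and Vil1 for the labels. From each other pathway list and from the enterocyte and smooth muscle markers, up to 2 with the smallest p were named. The remaining marker lists are given by score and count alone. Cox4i1, Atp5g2 and genes marked so in the text were added after their values were seen. Members and lists were chosen with earlier results of these data known. P-values set each difference against the spread between these mice, which limma partly pools over probe sets. Figures used matplotlib 3.10.9.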

Additional observations from a re-analysis of the deposited data

Results flagged for a closer look

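In a group of 4 samples, a value counts as standing apart when its gap to the nearest other sample is, as a share of the group's range, above Dixon's 95% limit. Among 68 sets of 4 values (28 named genes and 6 scores in each group) 4 met this, and chance gives about 1 in 20. Cox6b2 was low in knockout 3, at 6.18, with the others from 6.52 to 6.57, and in control 2, at 5.96, with the others from 6.29 to 6.34. Cox7a1 was low in knockout 3, at 10.51, with the others from 10.79 to 10.83. Sdhc was low in control 4, at 11.73, with the others from 11.82 to 11.84. Sdhc without control 4 had a difference of 0.15.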

How the results depend on the processing

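The count of called members was 0 under all 20 alternatives run, and the lowest adjusted p of any member was 0.506, in the ordinary linear model. Over all probe sets 19 were called, 13 to 20 with 1 sample left out, 2 in the ordinary linear model and 29 at an adjusted p under 0.1. Members above 0 numbered 104 to 125 of 177 with 1 sample left out. The median member difference ran from 0.016 to 0.042 with 1 sample left out and was -0.0089 after repeated quantile normalization, where the medians of complex IV and ATP synthase were -0.0076 and 0.030. The ATP synthase median was also 0.020 without probe sets ending in _x_at or _s_at, 0.027 when a gene's probe sets were averaged, and 0.029 to 0.071 with 1 sample left out. With 1 sample left out, the medians of complexes I and III changed sign, from -0.010 to 0.032 and from -0.011 to 0.025, that of complex II ran from 0.043 to 0.084 and that of complex IV from 0.0018 to 0.035. The cause was not tested. Of 28 named members, 7 changed sign somewhere, none being called. After quantile normalization Cox5b had -0.0035, Cox8a -0.0076 and Sdha -0.023. With 1 sample left out, values ran from -0.019 to 0.058 for Sdha, from -0.0098 to 0.055 for Cox5b, from -0.059 to 0.0022 for Ndufa3, from -0.073 to 0.0020 for Uqcr11, from -0.070 to 0.0087 for Uqcrq and from -0.046 to 0.0083 for Atp5e. Without control 2 and knockout 3 together, chosen after seeing the data, Ndufa3 had 0.010, Uqcrq 0.030, Atp5e 0.0026 and Sdha -0.0030. With the replicate number as a block 24 probe sets were called over all and 0 members, with the same median of 0.025. Samples with the same number did not deviate together (r from -0.18 to 0.076), and 0 of 8 samples correlated best with its own number. The array gives no detection calls, so levels near the bottom of the scale may be background.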
